A study of Mus musculus with 12 samples.

Results

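Transcripts of 37 genes of glucose uptake, glycolysis, lactate handling and the hypoxia response were followed in 3T3 cells, a mouse fibroblast line, across 4 groups of 3 libraries. The genes were chosen by symbol, as a list of glucose transporters, glycolytic and lactate enzymes, regulators of hypoxia-inducible factors (HIFs) and HIF targets, and all 37 were found among the 32544 symbols of the table. Cells of the Untreated group received no vesicles. The other groups received extracellular vesicles (EVs), membrane-bound particles shed by cells, for 24 h. The donors of the EVs were human breast cancer cells of the line MDA-MB-468, either controls (shCon), knocked down for CRIPTO (shCr) or made to overexpress it (CrOE). This membrane-anchored protein acts as a co-receptor for ligands of the TGF-beta family. It was altered in the donor cells only, so its level in the recipient libraries does not check the labels. Columns of the CrOE group carried only the name of the protein and were assigned by elimination, so every value given for CrOE rests on that step. The sources used here do not give the EV dose, the oxygen level of the cultures, whether a donor line was a single clone or whether replicates were separate cultures. P-values therefore measure the spread between these libraries, which may be technical.

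Glycolysis turns glucose into pyruvate in the cytosol, and lactate dehydrogenase can turn pyruvate into lactate, which leaves the cell through monocarboxylate transporters. Several steps have alternative isoenzymes encoded by different genes, such as hexokinases 1 and 2 or the muscle and liver subunits of phosphofructokinase. HIFs are transcription factors made of an oxygen-regulated alpha subunit (HIF-1 alpha from Hif1a, HIF-2 alpha from Epas1) and a constitutive partner. With oxygen present, prolyl hydroxylases (Egln1, Egln3) mark the alpha subunits for destruction, so much of HIF control acts on protein and is not seen in RNA. When stable, HIFs bind short DNA sites with the core letters ACGTG or GCGTG and raise transcription of many glycolytic genes, of Vegfa and of their own hydroxylases.

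These core letters were looked up in the RefSeq promoter windows (GRCm38.p6, 300 bases, 250 of them before the start), and a few windows are shown because their genes stand for different steps and were called in at least 1 comparison. The part before the start is printed 5′ to 3′ along the gene's strand, in lower case with each match on either strand in capitals. A match on the other strand reads CACGT or CACGC. The palindrome CACGTG holds a match on each strand and counts as 2. Hk2, Pgk1 and Bnip3 rose after CrOE EVs, and Ldhb and Adm fell. Ldha fell after shCon and shCr EVs and rose by log2 0.19 after CrOE EVs. Only 1 of the Ldha windows is shown, and the other held matches too. The full windows lie at chr6:82774405-82774704 (Hk2, minus strand), chrX:106186850-106187149 (Pgk1, plus strand), chr7:138909457-138909756 (Bnip3, minus strand), chr7:46845554-46845853 (Ldha, plus strand), chr6:142507908-142508207 (Ldhb, minus strand) and chr7:110627407-110627706 (Adm, plus strand).
Hk2: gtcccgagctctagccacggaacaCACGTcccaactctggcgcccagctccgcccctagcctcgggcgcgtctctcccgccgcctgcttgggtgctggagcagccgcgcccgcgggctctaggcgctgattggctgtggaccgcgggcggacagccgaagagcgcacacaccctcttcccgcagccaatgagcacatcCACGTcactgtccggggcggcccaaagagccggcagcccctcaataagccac
Pgk1: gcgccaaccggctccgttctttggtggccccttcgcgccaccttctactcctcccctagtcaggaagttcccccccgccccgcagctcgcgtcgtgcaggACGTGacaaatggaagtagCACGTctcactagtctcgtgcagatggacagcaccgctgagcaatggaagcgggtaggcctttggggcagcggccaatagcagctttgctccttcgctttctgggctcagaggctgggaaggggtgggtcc
Bnip3: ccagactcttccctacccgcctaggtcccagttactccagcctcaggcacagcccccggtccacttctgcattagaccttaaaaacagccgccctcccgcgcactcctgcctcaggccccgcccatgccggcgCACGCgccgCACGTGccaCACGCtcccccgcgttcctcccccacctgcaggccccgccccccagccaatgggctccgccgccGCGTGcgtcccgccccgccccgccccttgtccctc
Ldha: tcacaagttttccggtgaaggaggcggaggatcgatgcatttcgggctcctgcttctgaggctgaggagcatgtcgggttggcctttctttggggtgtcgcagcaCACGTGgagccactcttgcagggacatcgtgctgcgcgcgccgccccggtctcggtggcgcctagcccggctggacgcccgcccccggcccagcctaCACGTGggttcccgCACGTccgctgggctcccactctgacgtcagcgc
Ldhb: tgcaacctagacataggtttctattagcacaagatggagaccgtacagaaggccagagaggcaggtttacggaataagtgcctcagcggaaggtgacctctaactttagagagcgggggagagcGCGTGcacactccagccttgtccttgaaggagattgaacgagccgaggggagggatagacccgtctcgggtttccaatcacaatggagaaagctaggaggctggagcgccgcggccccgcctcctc
Adm: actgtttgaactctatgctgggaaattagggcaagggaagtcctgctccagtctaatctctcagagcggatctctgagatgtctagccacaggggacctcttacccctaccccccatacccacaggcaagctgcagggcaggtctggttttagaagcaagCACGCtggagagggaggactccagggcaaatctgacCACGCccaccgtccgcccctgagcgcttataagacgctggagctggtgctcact
Of the 37 genes, 34 had a window, and Slc2a3, Epas1 and Ndrg1 are named only. There were 50 windows, some of them overlapping. ACGTG or GCGTG was found in 39 of the 50 windows (78%), against 43.8% of the 32851 windows of the whole RefSeq table. ACGTG was in 19.6% of all windows and GCGTG in 32.4%, each counted with or without the other. In these genes 31 of 34 had a match in at least 1 window, and Gpi1, Tpi1 and Eno2 had none. The matches did not separate genes by direction. A window with a match was held by 13 of the 14 genes with a window that rose after CrOE EVs and by 13 of the 14 that fell. The list was chosen to include HIF targets, and the whole RefSeq table also covers genes with too few counts to be tested here. These shares are therefore no test of HIF control. The matches are of letters and not sites shown to be bound.

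Libraries held 25960054 to 37774020 estimated counts, and the 37 genes together took 0.807% to 1.14% of them. Levels are given as CPM, read counts made comparable between libraries through their TMM-adjusted totals, and they are compared for a gene between groups and not between genes. Of 14279 genes with enough counts to be tested, 36 were from the list. Slc2a3, encoding the glucose transporter GLUT3, had 0 to 14.2 estimated counts per library and was not tested. Among 11 fibroblast markers, 10 fell after CrOE EVs (edgeR, adjusted p under 0.05), and the summed level of the list was 8513 to 8891 CPM there against 20137 to 21693 CPM in untreated cells, 24839 to 25169 with shCon EVs and 16054 to 17932 with shCr EVs. The marker Lum averaged 0.0097 CPM after CrOE EVs against 3.82 CPM in untreated cells. A list of 6 macrophage and leukocyte markers summed to 48.9 to 59.5 CPM in untreated cells, 82.1 to 92.8 with shCon EVs, 130 to 193 with shCr EVs and 4.71 to 6.34 with CrOE EVs. Lyz2 averaged 46.9, 78.0, 146 and 1.25 CPM in these groups and made up most of each sum except that with CrOE EVs, while Ptprc stayed at or under 0.130 CPM on average and Adgre1 at or under 0.0224. The 7 epithelial markers summed to at most 2.82 CPM, with Epcam at 0 in every library, the 4 endothelial markers to at most 2.56 CPM and the 4 adipocyte markers to at most 0.337 CPM. The 2 epithelial and 3 endothelial markers with enough counts to be tested were higher after CrOE EVs. The part of these marker changes in the results below was not tested. In bulk RNA, fewer cells of a type and less RNA per cell cannot be told apart.

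After CrOE EVs, 15 of the 36 genes rose and 15 fell by edgeR's quasi-likelihood test at an adjusted p under 0.05, against 36.7% of all tested genes that rose and 37.0% that fell. The shares of the list (41.7% each) were near that background. At least 2-fold rises were found for 4 (11.0% of all genes) and at least 2-fold falls for 9 (18.7% of all genes). Hk2, Slc2a1, Bnip3 and Ndrg1 were the 4 that rose by at least 2-fold. Epas1, Aldoc, Adm, Ldhb, Pfkfb4, Pfkfb3, Pfkm, Eno2 and Slc16a3 were the 9 that fell as far. The median log2 fold change was 0.13 over the 36 genes and 0.0078 over all tested genes. Scaling of the libraries holds the median over all genes near 0, so that median is no independent reference.

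After shCon EVs, 6 genes rose, against 18.0% of all tested genes, and 16 fell, against 20.2%. The falls made up 44.4% of the list. After shCr EVs, 8 rose, against 18.4% of all genes, and 14 fell, 38.9% of the list against 18.8% of all genes. Medians were -0.19 and -0.17 on the log2 scale, against 0.0069 and 0.020 over all genes. None rose by 2-fold or more in either comparison (2.51% and 2.75% of all genes did), and Pfkfb3 alone fell that far in each (3.54% and 3.53% of all genes). Each EV group was set against the same untreated libraries, so the 3 comparisons share their reference values.

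**Figure D1:**
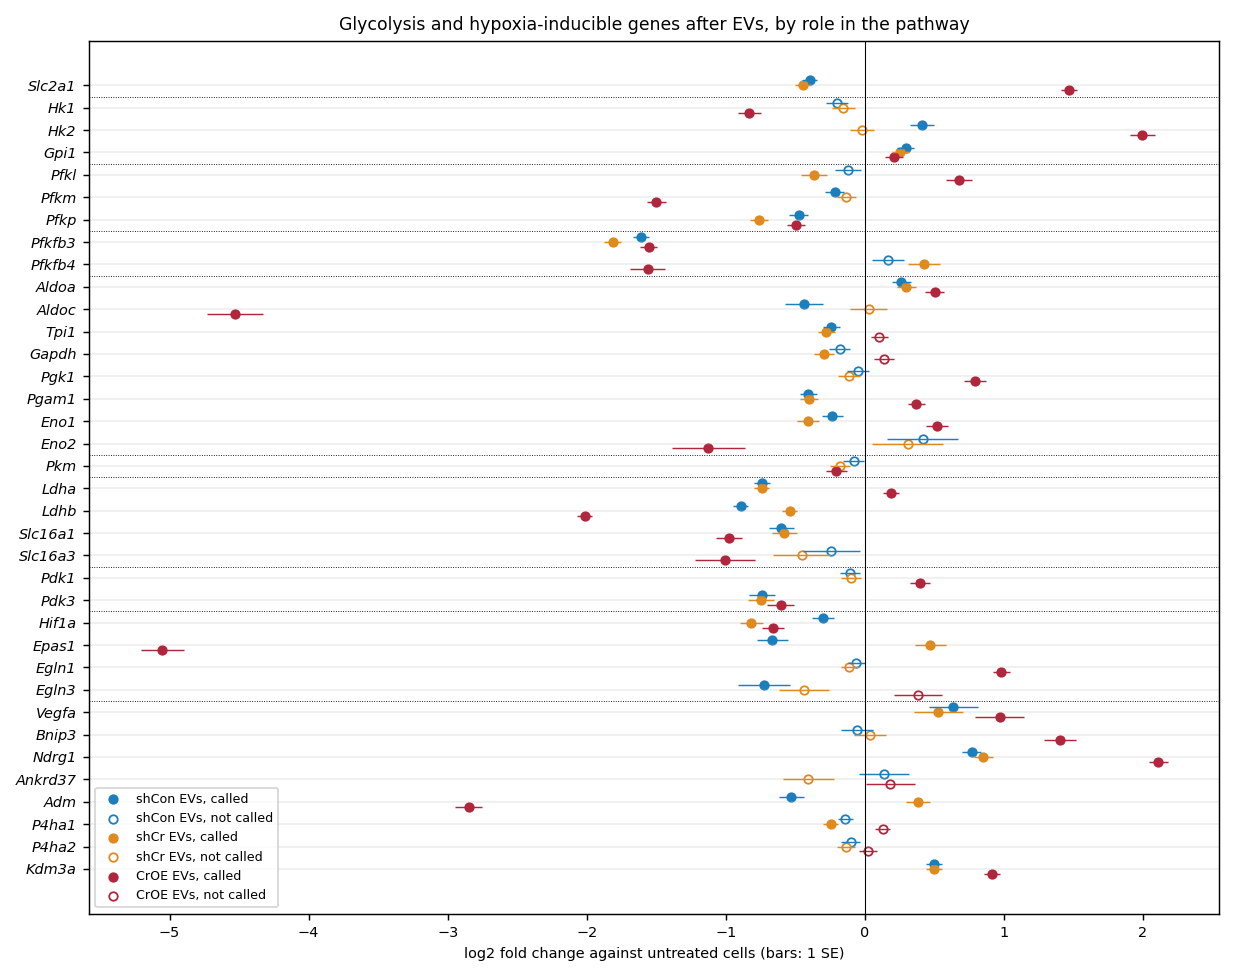
Log2 fold change of each tested gene (rows, grouped by role) against untreated cells after shCon, shCr and CrOE EVs, with bars of 1 SE. Filled points passed the test at an adjusted p under 0.05. After CrOE EVs the points run from -5.05 for Epas1 to 2.11 for Ndrg1, while those of the other EV groups lie between -1.81 and 0.85.

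Slc2a1 encodes GLUT1, the main basal glucose transporter of many cultured cells. Its level was 102, 96.5 and 108 CPM in untreated cells, 73.0, 78.7 and 80.8 with shCon EVs, 74.4, 76.6 and 74.2 with shCr EVs, and 275, 293 and 280 with CrOE EVs. Every CrOE library was thus above every other library, and every shCon and shCr library was below every untreated one. Against untreated cells Slc2a1 rose 2.77-fold after CrOE EVs (log2 1.47 ± 0.06 SE, adjusted p = 8.16e-11) and fell after shCon EVs (log2 -0.40, adjusted p = 1.28e-04) and shCr EVs (log2 -0.44, adjusted p = 4.82e-05).

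Hexokinase phosphorylates glucose on entry, and its 2 forms on the list went opposite ways after CrOE EVs. Hk2, the inducible form, was at 39.3, 48.8 and 40.9 CPM in untreated cells, 56.8, 57.2 and 57.2 with shCon EVs, 37.6, 43.3 and 46.2 with shCr EVs and 165, 180 and 169 with CrOE EVs. It rose 3.99-fold after CrOE EVs (log2 1.99 ± 0.09 SE, adjusted p = 3.06e-10) and 1.33-fold after shCon EVs (adjusted p = 0.00262). With shCr EVs the libraries overlapped the untreated ones (log2 -0.02, 95% interval -0.22 to 0.18). Hk1, the form most tissues carry, averaged 208 ± 7.04 CPM in untreated cells and 117 ± 3.99 with CrOE EVs (SD, n = 3), a fall of log2 -0.83 ± 0.08 (SE). After shCon EVs it was at log2 -0.20 (adjusted p = 0.0695, but 0.0017 without shCr 1, 0.00655 in a model of the 2 groups alone and 0.0254 with a replicate block). The ratio of Hk2 to Hk1 counts, which carries no correction for transcript length, was 0.206 in untreated cells, 0.315 with shCon EVs, 0.227 with shCr EVs and 1.46 with CrOE EVs, and ran from 1.40 to 1.53 in the CrOE libraries. Gpi1, which isomerises glucose-6-phosphate, rose after each kind of EV, by log2 0.29 (shCon), 0.25 (shCr) and 0.21 (CrOE). The call for shCr EVs was lost in a model of those 2 groups only (adjusted p = 0.0511).

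Phosphofructokinase makes fructose-1,6-bisphosphate, the committed step of glycolysis, from liver (Pfkl), muscle (Pfkm) and platelet (Pfkp) subunits. After CrOE EVs Pfkl rose and the others fell. Pfkm was at 109, 114 and 115 CPM in untreated cells, 93.9, 96.5 and 101 with shCon EVs, 90.9, 109 and 108 with shCr EVs and 38.7, 39.1 and 42.0 with CrOE EVs. The CrOE libraries lay apart from all others, a fall of 2.83-fold (log2 -1.50 ± 0.07 SE, adjusted p = 6.04e-10). Its small fall after shCon EVs (log2 -0.22) was lost when any of 4 single libraries was left out, Untreated 2 or 3 or shCon 1 or 2 (adjusted p 0.0527 to 0.0859). Pfkl went from 128 ± 12.1 CPM in untreated cells to 205 ± 14.2 with CrOE EVs (SD, n = 3; log2 0.68, adjusted p = 2.35e-05) and fell after shCr EVs (log2 -0.36, and -0.20 without Untreated 2 and shCr 1). The Pfkl to Pfkm count ratio was 1.13 in untreated cells, 1.21 with shCon EVs, 0.969 with shCr EVs and 5.13 with CrOE EVs. Pfkp fell after all 3 kinds of EV, by log2 -0.48, -0.76 and -0.50.

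Fructose-2,6-bisphosphate is the strongest activator of phosphofructokinase, and Pfkfb3 and Pfkfb4 encode enzymes that make and break it. Pfkfb3 fell to similar levels after all 3 kinds of EV. It was at 68.0, 68.8 and 68.7 CPM in untreated cells, 20.4, 23.5 and 23.4 with shCon EVs, 19.0, 20.1 and 19.3 with shCr EVs and 23.1, 23.3 and 23.6 with CrOE EVs. No EV library was above 23.6 CPM, so none overlapped the untreated ones. The falls were 3.05-fold, 3.51-fold and 2.94-fold (log2 -1.61, -1.81 and -1.55, each ± 0.06 SE). Between CrOE and shCon EVs the difference was 0.06 on the log2 scale (95% interval -0.08 to 0.20), between shCr and shCon EVs -0.20 (-0.34 to -0.06, adjusted p = 0.0624, but 0.0351 with DESeq2 and 0.0205 without shCon 1), and between CrOE and shCr EVs 0.26 (adjusted p = 0.00185). Pfkfb4 was at 17.5, 21.2 and 17.1 CPM in untreated cells, 19.9, 22.2 and 20.7 with shCon EVs, 20.4, 26.6 and 28.1 with shCr EVs, and 5.99, 6.49 and 6.43 with CrOE EVs. It fell only in the CrOE comparison with untreated cells (2.95-fold, log2 -1.56 ± 0.13 SE, adjusted p = 1.18e-07), and the difference from shCon EVs was itself called (log2 -1.73, adjusted p = 4.49e-08). Its rise after shCr EVs (log2 0.43, adjusted p = 0.0108) was 0.66 without Untreated 2 and shCr 1 and was lost without Untreated 3 (adjusted p = 0.0571) and in a model of the 2 groups alone (0.0695). The Pfkfb4 to Pfkfb3 count ratio was 0.272 in untreated cells and 0.270 with CrOE EVs, but 0.935 with shCon and 1.28 with shCr EVs.

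**Figure D2:**
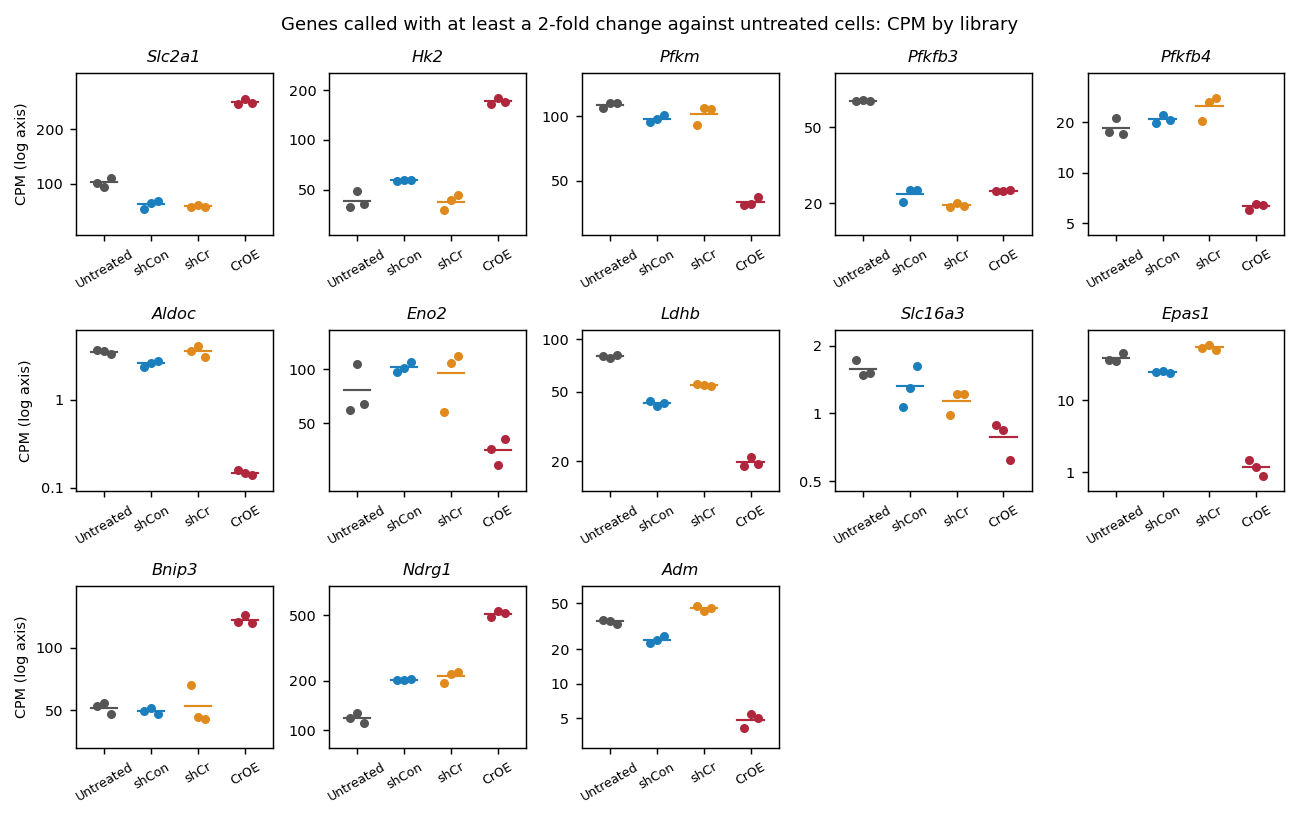
Level (CPM, log axis) in each library of the 13 genes called with at least a 2-fold change against untreated cells in any EV group. Each point is 1 library and each line the mean of 3. Pfkfb3 is low in all 9 EV libraries, whereas for the other 12 genes the CrOE libraries lie above or below every untreated library.

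The steps from aldolase to enolase split fructose-1,6-bisphosphate and carry it to phosphoenolpyruvate. Of 8 genes on the list, 4 rose after CrOE EVs (Aldoa, Pgk1, Pgam1 and Eno1) and 2 fell (Aldoc and Eno2), where 36.7% of all tested genes rose and 37.0% fell. After shCon EVs 1 rose and 4 fell (18.0% and 20.2% of all genes), and after shCr EVs again 1 rose and 4 fell (18.4% and 18.8%). Pgk1, phosphoglycerate kinase, averaged 595 ± 29.5 CPM in untreated cells, 575 ± 19.8 with shCon EVs, 549 ± 66.7 with shCr EVs and 1030 ± 44.3 with CrOE EVs (SD, n = 3), a rise of 1.73-fold after CrOE EVs (adjusted p = 8.36e-07). Its difference after shCr EVs (log2 -0.12) became a call without shCr 1 (log2 -0.22, adjusted p = 0.00465). Pgam1, a phosphoglycerate mutase, fell by log2 -0.41 and -0.40 after shCon and shCr EVs and rose by 0.37 after CrOE EVs. Eno1, the widespread enolase, fell by log2 -0.41 after shCr EVs and rose by 0.52 after CrOE EVs. The fall after shCon EVs (log2 -0.23, adjusted p = 0.0336) was lost without Untreated 2, Untreated 3, shCon 1 or shCon 2 (adjusted p 0.0617 to 0.116). Aldoa, the main muscle and fibroblast aldolase, rose after all 3 kinds of EV (log2 0.26, 0.30 and 0.50).

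Gapdh and Tpi1 are often used as reference genes, and both fell after shCr EVs (log2 -0.29 and -0.28). Tpi1 fell after shCon EVs as well (log2 -0.24, adjusted p = 0.00867). The value for Gapdh there was -0.18 (adjusted p = 0.065, but 0.0195 without shCr 1, 0.0224 in a model of the 2 groups alone, 0.0492 with DESeq2 and 0.0127 with a replicate block). After CrOE EVs neither was called against untreated cells. Tpi1 was at log2 0.10 (95% interval -0.04 to 0.25, and 0.17 with adjusted p = 0.0191 without Untreated 2) and Gapdh at 0.13 (-0.03 to 0.30, adjusted p = 0.113, and 0.0482 without shCr 1). Against shCon EVs, both were higher with CrOE EVs, by log2 0.35 and 0.32.

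Aldoc and Eno2, the aldolase and enolase best known from brain, fell steeply after CrOE EVs. Aldoc was low throughout, at 3.66, 3.54 and 3.31 CPM in untreated cells, 2.36, 2.62 and 2.77 with shCon EVs, 3.63, 4.07 and 3.05 with shCr EVs and 0.159, 0.145 and 0.140 with CrOE EVs. Each CrOE library held 5 estimated counts against 90 to 100 in the untreated ones, a fall of log2 -4.53 ± 0.20 (SE, adjusted p = 3.82e-10). Its smaller fall after shCon EVs (log2 -0.44, adjusted p = 0.0236) was lost without Untreated 1, shCon 1 or shCon 2, with DESeq2 (adjusted p = 0.0634) and with no low-count filter (0.054). Eno2 was at 59.1, 107 and 64.2 CPM in untreated cells, 96.3, 101 and 110 with shCon EVs, 57.7, 108 and 119 with shCr EVs and 35.9, 29.1 and 40.6 with CrOE EVs. Untreated 2 was high and shCr 1 low among their replicates, and the CrOE libraries lay below all others. The fall after CrOE EVs was log2 -1.13 ± 0.26 (SE, adjusted p = 0.00167), and -0.81 without Untreated 2. For the other EVs Eno2 was not called, at log2 0.41 (shCon) and 0.31 (shCr), and these values depended on single libraries. Without Untreated 2 the shCon value was 0.73 (adjusted p = 0.0318), and without shCr 1 the shCr value was 0.56 (adjusted p = 0.0315). Leaving out single libraries moved the shCr value between 0.11 and 0.63. Without both Untreated 2 and shCr 1 it was 0.88 (adjusted p = 1.31e-05). The ratio of Eno2 to Eno1 counts averaged 0.149 in untreated cells, 0.236 with shCon EVs, 0.243 with shCr EVs and 0.0483 with CrOE EVs.

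Sequence shared with other genes limits the reading of these steps. In GENCODE M21 transcripts, over 10% of the stretches of 31 bases of 11 listed genes occur in another gene as well, with 54.7% for Pgk1, 37.1% for Pgam1, 34.7% for Pkm, 33% for Ldhb, 28.5% for Eno1, 27.2% for Gapdh and 20.3% for Bnip3. The share was 19.6% for Ldha, 13.9% for Gpi1, 13.5% for Aldoa and 10.3% for Tpi1. How such reads were counted is not given in the sources used here, so levels of these genes are uncertain. Exons of Pfkm, Pkm and Hif1a overlap a gene on the same strand. For 12 genes (Slc2a1, Hk1, Gpi1, Pfkm, Pfkp, Aldoa, Tpi1, Gapdh, Hif1a, Bnip3, Ndrg1 and Ankrd37) exons overlap a gene on the opposite strand. The libraries were directional, but whether strand was used when reads were counted is not given in the sources used here.

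Pyruvate kinase, from Pkm, makes pyruvate and moved little. It averaged 2653 ± 113 CPM in untreated cells and 2301 ± 107 with CrOE EVs (SD, n = 3; log2 -0.21, adjusted p = 0.0235). That call was lost without Untreated 2, Untreated 3 or CrOE 1 (adjusted p 0.0502 to 0.0851). Pkm was not called after shCon EVs (log2 -0.08) or shCr EVs (log2 -0.18, adjusted p = 0.0764, and 0.0339 without shCr 3). Its muscle and ubiquitous splice forms are not separated in a table per gene.

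Lactate dehydrogenase has A subunits (Ldha), which favour lactate, and B subunits (Ldhb), which favour pyruvate. Ldha averaged 528 ± 19.6 CPM in untreated cells, 316 ± 14.6 with shCon EVs, 316 ± 8.64 with shCr EVs and 601 ± 34.6 with CrOE EVs (SD, n = 3). It fell by log2 -0.74 after both shCon and shCr EVs (± 0.06 SE, adjusted p = 6.66e-07 and 5.86e-07) and rose by 0.19 after CrOE EVs (adjusted p = 0.00985). Ldhb was at 80.0, 77.9 and 80.9 CPM in untreated cells, 44.2, 41.3 and 43.1 with shCon EVs, 55.1, 54.8 and 54.1 with shCr EVs and 18.8, 21.1 and 19.2 with CrOE EVs. No library of a group overlapped another group, and the order was the same in all of them, untreated highest, then shCr, shCon and CrOE. Ldhb fell 4.04-fold after CrOE EVs (log2 -2.01 ± 0.05 SE, adjusted p = 3.4e-12), by log2 -0.89 after shCon EVs and by log2 -0.54 after shCr EVs. The Ldhb to Ldha count ratio was 0.151 in untreated cells and 0.0328 with CrOE EVs, with 0.136 and 0.173 for shCon and shCr EVs.

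Both monocarboxylate transporters on the list fell after CrOE EVs, and Slc16a1 fell after the other EVs too. Slc16a1 (MCT1), which carries lactate in and out of cells, averaged 228 ± 2.62 CPM in untreated cells, 150 ± 4.49 with shCon EVs, 152 ± 23.9 with shCr EVs and 116 ± 8.37 with CrOE EVs (SD, n = 3), and all 3 falls were called (log2 -0.60, -0.58 and -0.98). The further difference between CrOE and shCr EVs was log2 -0.40, and -0.26 without shCr 1. Slc16a3 (MCT4), the HIF-inducible exporter of lactate, was hardly present, at 1.72, 1.49 and 1.51 CPM in untreated cells, 1.07, 1.29 and 1.62 with shCon EVs, 0.987, 1.22 and 1.22 with shCr EVs and 0.888, 0.844 and 0.618 with CrOE EVs. With 22 to 47 estimated counts a library, it fell 2.01-fold after CrOE EVs (log2 -1.01 ± 0.21 SE, adjusted p = 8.51e-04). It was not called after shCon EVs (adjusted p = 0.381) or shCr EVs (adjusted p = 0.102). Its call between CrOE and shCr EVs (log2 -0.55, adjusted p = 0.0347) was lost without shCr 2, shCr 3 or CrOE 3 (adjusted p 0.0893 to 0.136) and with DESeq2 (0.072). That call was also lost with no low-count filter (0.0666), with a replicate block (0.0559) and in a model of the 2 groups alone (0.0627).

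Pyruvate dehydrogenase kinases keep pyruvate out of the mitochondrial citrate cycle. Pdk1, a HIF-inducible one, rose after CrOE EVs from 51.1 ± 3.16 to 67.2 ± 6.69 CPM (SD, n = 3; log2 0.40, adjusted p = 2.99e-04). Pdk3 fell after shCon, shCr and CrOE EVs by log2 -0.74, -0.75 and -0.61 (± 0.10, 0.10 and 0.09 SE). Between CrOE and shCon EVs it differed by 0.13 on the log2 scale (95% interval -0.09 to 0.35, adjusted p = 0.226), and the difference was called in a model of the 2 groups alone (0.0198) and without Untreated 2 and shCr 1 (0.00871). Against shCr EVs the value was 0.14 (adjusted p = 0.198), and 0.27 with adjusted p = 0.00465 without shCr 1.

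**Figure D3:**
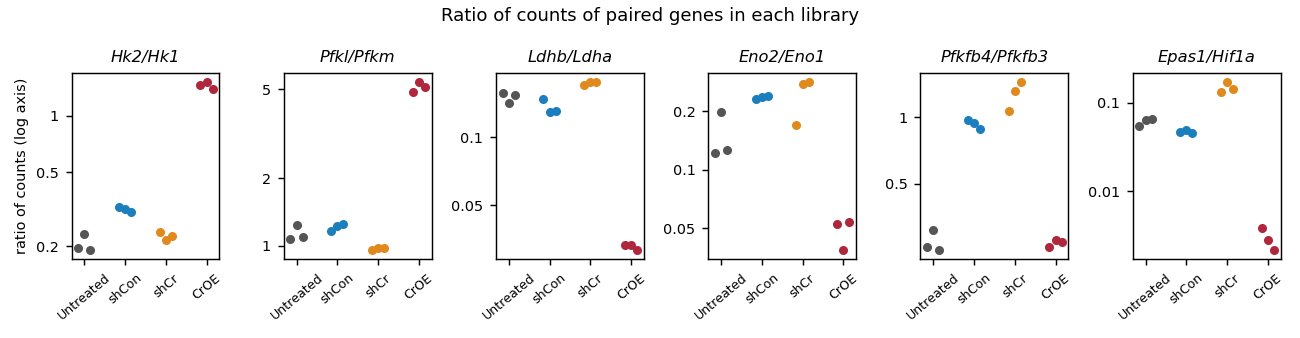
Ratio of the counts of 2 related genes in each library (log axis), with no correction for transcript length. In the CrOE libraries Hk2/Hk1 (1.40 to 1.53) and Pfkl/Pfkm (4.87 to 5.41) are above all other libraries, and Ldhb/Ldha, Eno2/Eno1 and Epas1/Hif1a are below all others.

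The genes of the HIF alpha subunits both fell after CrOE EVs, to very different degrees. Hif1a averaged 640 ± 70.7 CPM in untreated cells, 518 ± 6.17 with shCon EVs, 363 ± 31.7 with shCr EVs and 405 ± 16.1 with CrOE EVs (SD, n = 3). It fell after all 3 kinds of EV, by log2 -0.30, -0.82 and -0.66. Between CrOE and shCr EVs the difference was 0.16 (95% interval -0.03 to 0.34, adjusted p = 0.0936). It was called without Untreated 2 (adjusted p = 0.0362), without shCr 1 (log2 0.23, adjusted p = 0.0116) and without both (2.27e-04). Epas1 was at 36.2, 35.6 and 45.5 CPM in untreated cells, 24.7, 25.4 and 23.8 with shCon EVs, 53.2, 59.6 and 49.9 with shCr EVs and 1.49, 1.19 and 0.870 with CrOE EVs. All 4 groups were separate, with shCr EVs highest and CrOE EVs lowest. Against untreated cells Epas1 fell 33.2-fold after CrOE EVs (log2 -5.05 ± 0.16 SE, adjusted p = 1.12e-11) and by log2 -0.67 after shCon EVs (adjusted p = 5.19e-04), and it rose by 0.47 after shCr EVs (adjusted p = 0.00452). Its count ratio to Hif1a was 0.0612 in untreated cells, 0.0476 with shCon EVs, 0.150 with shCr EVs and 0.00294 with CrOE EVs.

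The prolyl hydroxylases are both regulators and targets of HIF. Egln1 averaged 59.5 ± 3.35 CPM in untreated cells, 57.0 ± 2.87 with shCon EVs, 55.1 ± 0.818 with shCr EVs and 118 ± 6.86 with CrOE EVs (SD, n = 3), a rise of 1.97-fold after CrOE EVs (log2 0.98 ± 0.06 SE, adjusted p = 8.45e-09). It was not called for shCon EVs (log2 -0.06) or shCr EVs (log2 -0.11). Egln3 was low, at 2.24 to 4.84 CPM by group mean. It fell after shCon EVs (log2 -0.73, adjusted p = 0.0085) and was at log2 0.38 after CrOE EVs (adjusted p = 0.0623). Without Untreated 2, its highest untreated library, the CrOE value was 0.59 (adjusted p = 0.00647). Between CrOE and shCon EVs Egln3 differed by log2 1.11 (adjusted p = 1.08e-04).

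Among 8 further HIF targets, 4 rose and 1 fell after CrOE EVs, against 36.7% and 37.0% of all tested genes. Ndrg1, a stress-induced gene of differentiation, was at 119, 127 and 110 CPM in untreated cells, 201, 202 and 204 with shCon EVs, 195, 220 and 227 with shCr EVs, and 488, 535 and 514 with CrOE EVs. The EV groups were all above the untreated one, and the CrOE libraries were above the rest. The rises were 1.70-fold, 1.80-fold and 4.31-fold (log2 0.77, 0.85 and 2.11, each ± 0.07 SE). Kdm3a, a histone demethylase, was likewise highest with CrOE EVs, at 79.6 ± 3.04 CPM in untreated cells, 112 ± 5.22 with shCon EVs, 112 ± 5.83 with shCr EVs and 150 ± 4.20 with CrOE EVs (SD, n = 3), and all 3 rises were called (log2 0.49, 0.49 and 0.92).

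Bnip3, which marks mitochondria for removal, was at 52.1, 54.2 and 47.7 CPM in untreated cells, 49.5, 51.0 and 47.7 with shCon EVs, 65.8, 46.6 and 45.5 with shCr EVs and 133, 143 and 131 with CrOE EVs. Only the CrOE libraries lay apart from the others, and shCr 1 was above its replicates. The rise after CrOE EVs was 2.65-fold (log2 1.40 ± 0.12 SE, adjusted p = 1.52e-07), and the value after shCon EVs was -0.05 (95% interval -0.32 to 0.21).

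Vegfa, the main angiogenic growth factor, also had uneven groups, with a highest over lowest library of 1.65 with shCr EVs and 1.48 in untreated cells. Other genes varied as much within a group, such as Egln3 (1.79) and Ankrd37 (1.62) in untreated cells. It was at 87.9, 130 and 89.1 CPM in untreated cells, 147, 160 and 170 with shCon EVs, 106, 161 and 175 with shCr EVs and 190, 192 and 218 with CrOE EVs. As for Eno2, Untreated 2 was the high library and shCr 1 the low one. Vegfa rose after CrOE EVs (log2 0.97 ± 0.18 SE, adjusted p = 2.58e-04) under every alternative tried. The rise after shCon EVs (log2 0.63, adjusted p = 0.0126) was lost without Untreated 1 or 3 (adjusted p = 0.0575 and 0.0603). The rise after shCr EVs (log2 0.53, adjusted p = 0.0319) was lost without Untreated 1 or 3 or shCr 2 or 3 (adjusted p 0.101 to 0.132) and in a model of the 2 groups alone (0.126), and was 0.92 without Untreated 2 and shCr 1. Every CrOE library was above every shCon library, but the difference was not called (log2 0.33, 95% interval -0.07 to 0.73, adjusted p = 0.102). It was called without shCr 1 (adjusted p = 0.0236), without Untreated 2 and shCr 1 (1.45e-04), in a model of the 2 groups alone (3.31e-04) and with a replicate block (0.0484). The call between CrOE and shCr EVs (log2 0.44, adjusted p = 0.0358) was lost without shCr 1 (log2 0.25, adjusted p = 0.107) or any CrOE library (0.0542, 0.0563 and 0.109). That call was also lost where 10 counts were required in each library (0.0525). Mitochondrially encoded genes took 0.495%, 1.64% and 0.991% of the counts of Untreated 1 to 3, 0.622%, 1.44% and 1.70% of shCr 1 to 3, 1.35% to 1.64% with shCon EVs and 1.32%, 0.693% and 1.44% of CrOE 1 to 3. The part of this difference in the values of Vegfa, Eno2 and the other genes was not tested.

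Adm, encoding the vasodilator peptide adrenomedullin, was the 1 of these 8 targets that fell after CrOE EVs. It was at 36.1, 35.1 and 33.4 CPM in untreated cells, 22.5, 23.9 and 26.2 with shCon EVs, 48.0, 42.8 and 45.8 with shCr EVs and 4.06, 5.41 and 5.0 with CrOE EVs. The groups stood in the same order as for Epas1 with no overlap, shCr highest and CrOE lowest. Adm fell 7.21-fold after CrOE EVs (log2 -2.85 ± 0.10 SE, adjusted p = 3.08e-11) and by log2 -0.53 after shCon EVs (adjusted p = 4.26e-04), and it rose by 0.38 after shCr EVs (adjusted p = 0.00325).

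The collagen prolyl hydroxylases P4ha1 and P4ha2, which mature collagen chains, moved little. P4ha1 fell after shCr EVs (log2 -0.25, adjusted p = 0.0033) and was at 0.13 after CrOE EVs (adjusted p = 0.051, and 0.0226 to 0.0294 without Untreated 3, shCr 1 or CrOE 1). P4ha2 averaged 117 to 131 CPM by group and was not called against untreated cells in any EV group. Ankrd37, a small ankyrin-repeat gene, averaged 1.79 to 2.70 CPM by group and was not called against untreated cells either.

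Comparing shCr with shCon EVs asks whether less CRIPTO in the donor cells changed the response, and few genes of the list differed. Called were 3 higher (Epas1, Adm and Ldhb), 8.33% of the list against 5.22% of all tested genes, and 3 lower (Hif1a, Hk2 and Pfkp), 8.33% against 3.51%. Epas1 was 2.20-fold higher with shCr EVs (log2 1.14 ± 0.11 SE, adjusted p = 6.48e-05), and Adm 1.88-fold (log2 0.91 ± 0.09, adjusted p = 4.46e-05). Left-out libraries kept Epas1 between log2 1.06 and 1.19 and Adm between 0.86 and 0.97. Ldhb was higher by log2 0.35 (adjusted p = 0.00122), Hif1a lower by log2 -0.51 (adjusted p = 0.00168) and Hk2 lower by log2 -0.43 (adjusted p = 0.0086). Pfkp was lower by log2 -0.28 (adjusted p = 0.0195), a call lost without shCon 2, shCon 3 or shCr 2 (adjusted p 0.0535 to 0.0872) and in a model of these 2 groups alone (0.0915). Without Untreated 2 and shCr 1 together, 11 genes of the list were called in place of 6.

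For the other 30 tested genes no difference between shCr and shCon EVs was called. In 25 of them the 95% interval stayed within 0.58 on the log2 scale in either direction. The intervals of Aldoc, Eno2, Slc16a3, Egln3 and Ankrd37 reached further. Aldoc was at log2 0.47 (0.15 to 0.78, adjusted p = 0.052, and 0.0261 without shCr 3), and Ankrd37 at -0.55 (-0.96 to -0.13, adjusted p = 0.0865, and 0.0406 without Untreated 2 and shCr 1). Pfkfb4 was at log2 0.26 (adjusted p = 0.202), and at 0.39 without shCr 1 (adjusted p = 0.0143). Slc2a1 was at -0.05 (-0.18 to 0.08) and Ndrg1 at 0.08 (-0.08 to 0.23).

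**Figure D4:**
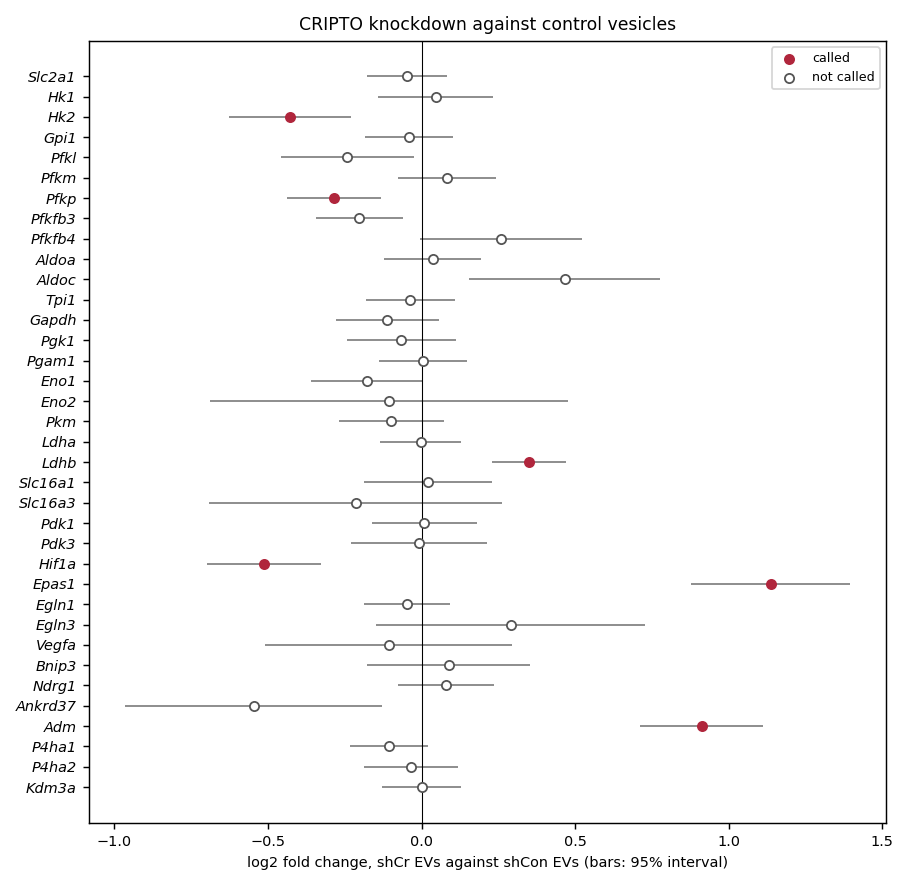
Log2 fold change of each tested gene between cells given shCr and shCon EVs, with 95% intervals. Filled points passed the test, Epas1 (1.14), Adm (0.91) and Ldhb (0.35) above 0 and Hif1a (-0.51), Hk2 (-0.43) and Pfkp (-0.28) below it.

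The samples hold no separate control for the overexpressing donors, and the EV dose is not given in the sources used here. Set against shCon EVs, where both groups received EVs, CrOE EVs gave 17 of 36 genes higher and 11 lower (36.5% and 36.1% of all tested genes). Against shCr EVs, 22 were higher and 10 lower (36.9% and 37.0% of all genes). The medians were 0.19 and 0.32 on the log2 scale, against 0.0075 and 0.0076 over all genes. From aldolase to enolase, 6 of 8 genes were higher and 2 lower in each of these comparisons. Slc2a1 was 3.65-fold above shCon EVs and 3.76-fold above shCr EVs, Hk2 3.00-fold and 4.04-fold, Ldha 1.90-fold in both, Pgk1 1.79-fold and 1.88-fold and Egln1 2.06-fold and 2.13-fold. On the lower side, Epas1 was 20.9-fold below shCon EVs and 46.0-fold below shCr EVs, and Adm 5-fold and 9.41-fold.

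For the wider lists that follow, the shares of all tested genes that rose and fell were 36.7% and 37.0% after CrOE EVs, 18.0% and 20.2% after shCon EVs, and 18.4% and 18.8% after shCr EVs. Of 11 tested genes of the HIF machinery, 4 rose and 5 fell after CrOE EVs, 0 rose and 4 fell after shCon EVs, and 0 rose and 2 fell after shCr EVs. Arnt, the constant partner of the alpha subunits, fell after CrOE EVs from 134 ± 3.6 to 93.4 ± 2.4 CPM (SD, n = 3; log2 -0.53). Hif1an, whose product blocks HIF activity, rose by log2 0.41, Egln2 fell by log2 -0.18, and Vhl, whose product destroys hydroxylated HIF, was at log2 0.02. Among 39 further HIF targets, 19 rose and 10 fell after CrOE EVs, 15 rose and 10 fell after shCon EVs, and 10 rose and 11 fell after shCr EVs. The median after CrOE EVs was 0.26, against 0.0078 over all genes. Ak4, a mitochondrial adenylate kinase, rose by log2 3.05 after CrOE EVs, Ero1l, an oxidase of the endoplasmic reticulum, by 2.82, Tfrc, the transferrin receptor, by 2.46 and Stc2, a secreted stanniocalcin, by 2.44. Angptl4 fell by log2 -3.46, Pgf by -2.94 and Nos2 by -2.46. Stc1 fell after shCon EVs (log2 -2.47), shCr EVs (-1.95) and CrOE EVs (-1.58), and Rragd rose after each (2.26, 2.59 and 2.55). Cited2, whose product competes with HIF for its coactivator, was higher with CrOE than with shCon EVs by log2 2.08. Bnip3l (log2 0.01) and Car9 (log2 0.46), often used as hypoxia markers, were not called after CrOE EVs.

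Other enzymes of the same routes were also counted, against the same shares of all tested genes (36.7% and 37.0% after CrOE EVs). Of 19 tested glycolytic isoforms and transporters outside the list, 7 rose and 7 fell after CrOE EVs, 5 rose and 5 fell after shCon EVs, and 6 rose and 5 fell after shCr EVs. Eno3, the muscle enolase, fell after shCon, shCr and CrOE EVs by log2 -1.07, -1.06 and -2.98, from 47.1 ± 1.8 CPM in untreated cells to 5.96 ± 0.77 with CrOE EVs (SD, n = 3). Slc16a8, another lactate transporter, rose after CrOE EVs by log2 2.46, to 2.54 CPM, and Eno4 was higher by log2 2.03 than with shCon EVs, at 0.92 CPM. For the entry of pyruvate into mitochondria 3 of 13 rose and 6 fell after CrOE EVs, with Pdk4 at log2 -2.01 and Pdk2 at -0.96. In that list 1 rose and 3 fell after shCon EVs, and 6 rose and 1 fell after shCr EVs. Pentose phosphate enzymes gave 3 higher and 3 lower of 9 after CrOE EVs. They gave 3 higher and 2 lower after shCon EVs, and 5 higher and 1 lower after shCr EVs. Of all tested genes, 18.0% rose and 20.2% fell after shCon EVs, and 18.4% rose and 18.8% fell after shCr EVs. Myc, a transcription factor that also drives many glycolytic genes, rose from 34.9 ± 1.6 to 235 ± 14 CPM after CrOE EVs (SD, n = 3; log2 2.75) and was not called after shCon or shCr EVs.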

How the data were processed

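RNA of 12 libraries was measured by directional poly(A) sequencing, per the labels' protocols. The deposited table holds unscaled estimated counts by gene symbol, and 38.7% to 41.4% of the values of each library were not whole. Per the submitters' processing notes featureCounts and mm39 were used, with no role or version given; the annotation and the use of strand are not given in the sources used here. Values were rounded, as the test needs whole numbers, although the planned design had assumed raw counts. Genes passed filterByExpr (14279 of 32544) and libraries were scaled by TMM. This scaling takes most genes as unchanged, which was not tested for the CrOE comparisons, where small shifts depend on it. Differences between the 6 pairs of groups were tested in edgeR (version 4.0.16, under R 4.3.3) with its quasi-likelihood F statistic, in 1 model of 12 libraries (8 residual degrees of freedom, biological coefficient of variation 8.90%), with Benjamini-Hochberg adjustment over all genes. An adjusted p under 0.05 was a call, with no limit on fold. Standard errors came from the F statistic, and 95% intervals are not adjusted. The test was also run on simulated counts in which a small set of genes was changed, in the shCon group only. That run does not cover changes as wide as those after CrOE EVs.

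The listed genes, the further lists and the tests were chosen with earlier results of these data known. Values by library are printed for listed genes called with a log2 change of at least 1 against untreated cells, or 0.58 between shCr and shCon EVs, and for Vegfa, added after its values were seen. Genes outside the list are named where called with a log2 change of at least 2, or for their place in the pathway (Arnt, Vhl, Hif1an, Egln2, Pdk2, Pdk4, Myc, Car9 and Bnip3l). A few cell type markers are named outside this rule. As alternatives, each library was left out, values were rounded down, only the 2 groups compared were modelled, the replicate number was added as a block, the filter was dropped or raised to 10 counts in each library, size factors were taken by median of ratios, and DESeq2 1.42.0 was used. Promoters are from RefSeq (GRCm38.p6) and gene overlaps from GENCODE M21; since the build differs from mm39, no coordinates of the counted genes are given.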

Additional observations from a re-analysis of the deposited data

How the results depend on the processing

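Of 140 calls over the 6 comparisons, 127 were kept under all of the 20 alternatives in which their gene was tested. The other 13 were lost under at least 1. Aldoc was not tested where 10 counts were required in each library, so its calls for CrOE EVs were not checked in that setting. The lost calls were Aldoc, Eno1, Pfkm and Vegfa for shCon EVs against untreated cells, Gpi1, Pfkfb4 and Vegfa for shCr EVs, Pkm for CrOE EVs, Pfkp between shCr and shCon EVs, and Aldoa, P4ha2, Slc16a3 and Vegfa between CrOE and shCr EVs. No called value changed sign. The count of called genes stayed within 1.5 times its value, except between shCr and shCon EVs without Untreated 2 and shCr 1 (chosen after seeing the data), where 11 were called in place of 6. Leaving out single libraries gave 19 to 25 called genes between shCon EVs and untreated cells, 21 to 24 with shCr and 30 to 32 with CrOE EVs, 5 to 7 between shCr and shCon EVs, 28 to 30 between CrOE and shCon EVs and 28 to 33 between CrOE and shCr EVs. Where this left 2 libraries in a group, they were assumed to vary like the other groups. Leaving out single libraries moved Hk2 for shCr EVs between -0.087 and 0.081, Eno2 between shCr and shCon EVs between -0.30 and 0.15, Vegfa there between -0.25 and 0.080, and Pfkfb3 between CrOE and shCon EVs between -0.0089 and 0.091. Values that were not called and changed sign were Hk2 for shCr EVs against untreated cells (-0.02), at 0.081 without Untreated 2, 0.058 without shCr 1 and 0.16 without both (adjusted p = 0.0304), Eno2 between shCr and shCon EVs, from -0.11 to 0.15 without shCr 1 and to 0.15 without Untreated 2 as well, Vegfa there, from -0.11 to 0.080 in both of these settings, and Pfkfb3 between CrOE and shCon EVs, from 0.06 to -0.0089 without shCon 1. The causes were not tested.

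No pairing of the libraries by replicate number was seen. Same-numbered libraries correlated at -0.20 to 0.32 in their deviations from group means (18 pairs, median 0.0050) and others at -0.36 to 0.35. With few libraries in a group, such a check can miss a pairing. With the number as a replicate block, the comparisons of shCon, shCr and CrOE EVs with untreated cells gave 24, 23 and 31 called genes, and 7, 30 and 31 resulted for shCr against shCon, CrOE against shCon and CrOE against shCr EVs. Low counts limit Slc2a3, Aldoc, Slc16a3, Egln3 and Ankrd37.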
